A study of Mus musculus with 6 samples.

Results

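The mitochondrial genome transcripts are the rows of the count tables whose chromosome is MT, and these were 37 of 41388 genes: 13 protein genes, 2 ribosomal RNA (rRNA) genes and 22 transfer RNA (tRNA) genes. They were chosen by chromosome alone. RNA had been sequenced from cells sorted for EGFP, a green fluorescent protein, out of dorsal root ganglia of C57BL/6 mouse embryos at 18.5 days post coitum. All embryos are given as RetFloxedEGFP with Cre recombinase at the Nav1.8 locus (RetFloxedEGFP / Scn10a<tm2(cre)Jnw>), so that EGFP marks cells of the Ret population in which that Cre is active. The labels do not give the number of copies of either allele. The ganglia came from spinal levels T11 to S1, and the label of male C gives the genotype in a shortened form. There were 3 female libraries and 3 male libraries, named by the letters A to C. Male B held 60 ganglia of 3 embryos, male C held 20 ganglia of 1 embryo, and each of the other 4 libraries held 40 ganglia of 2 embryos. The values of single libraries are given in letter order, A to C, within each sex. No library of unsorted cells, of another cell type or without the Cre was analysed here. The p-values below therefore measured the spread between these pools, and in males between pools of 2 and 3 embryos and a single embryo.

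The mitochondrial genome is a small circle that is read from both strands into long transcripts, which are then cut, mostly at the tRNAs, into separate RNAs. The rRNAs build the ribosome of the organelle, the tRNAs serve that ribosome, and the proteins are core subunits of respiratory complexes I, III and IV and of ATP synthase. The rRNA genes, 14 tRNA genes and every protein gene except mt-Nd6 lie on the strand called plus here, while mt-Nd6 and 8 tRNA genes lie on the minus strand. The libraries were made with a kit that primes reverse transcription from poly(A), and mitochondrial mRNAs and rRNAs carry such tails, with mt-Nd6 described as an exception in human cells, whereas finished tRNAs end in CCA. Axons of sensory neurons are long and rich in mitochondria.

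Total counts lay between 15.69 and 24.03 per library, in units of 1e+06 reads, and a count of 0 allowed a level of up to 0.125 to 0.191 reads per 1e+06 counted reads (CPM) in a library, for counting error alone. The sort genes were present in every library: Scn10a, which encodes the Nav1.8 channel, averaged 119 ± 16.8 CPM per kilobase of gene (RPKM), and Ret, the receptor subunit for glial cell line-derived factors, 27.8 ± 3.82 RPKM (SD, n = 6). Summed levels of 7 neuron markers lay between 12363 and 13651 CPM in female libraries and between 13139 and 16329 CPM in male libraries, with male C highest. All 8 glial markers were detected, at sums of 731 to 913 CPM in female libraries and 787 to 881 CPM in male libraries. All 8 blood cell markers were detected too, at sums of 40.4, 101 and 185 CPM in females and of 1022, 136 and 34.7 CPM in males. Summed markers of endothelial and immune cells lay between 7.24 and 8.35 CPM in female libraries and between 4.71 and 7.44 CPM in male libraries. Those of muscle lay between 9.69 and 13.1 CPM in female libraries and between 9.82 and 12.8 CPM in male libraries. The part of these other cells in the values below was not tested, and in such bulk samples fewer cells of a type cannot be told apart from less RNA per cell.

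Mitochondrial genes took between 1.90% and 2.88% of the counts. The share was 2.60%, 2.28% and 2.25% in females, against 2.88%, 2.61% and 1.90% in males. Male A was highest and male C lowest, and the sexes overlapped, at 2.38% ± 0.194 in females and 2.47% ± 0.504 in males (SD, n = 3 each). The 95% Wilson interval of a single library's share was at most 0.0157 percentage points wide, so that counting error was far smaller than the spread between libraries. Most of the counted reads came from few genes: mt-Rnr2, mt-Cytb, mt-Nd1, mt-Co1 and mt-Rnr1 together held between 84.4% and 91.8% of mitochondrial counts. These shares are of counted reads and not of RNA content. The 6 protein genes in an interval with a nuclear copy, described below, had few reads or none.

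**Figure D1:**
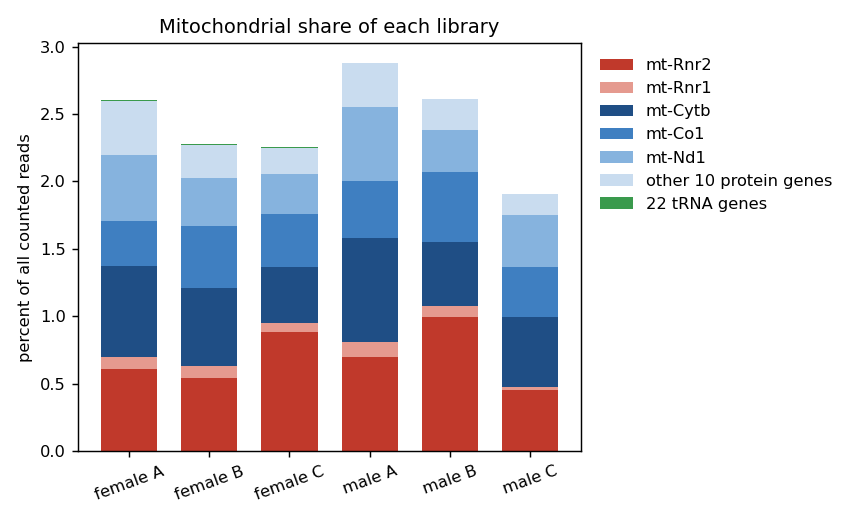
Stacked bars give the percent of all counted reads in each female library (left) and each male library (right), split into 5 single genes, the other 10 protein genes and the 22 tRNA genes. The bars reach from 1.90% in male C to 2.88% in male A, the mt-Rnr2 part is thickest in female C and male B, and the tRNA part is barely visible.

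The ribosomal RNAs took a far larger part of mitochondrial counts in 2 libraries than in the other 4. They made up 26.8%, 27.6% and 42.1% of mitochondrial counts in females, against 28.0%, 41.1% and 24.7% in males, with Wilson intervals at most 0.309 percentage points wide. Female C and male B were high and the others lay close together, so the split did not follow sex. The large-subunit rRNA gene mt-Rnr2 (ENSMUSG00000064339, MT 1094 to 2675, plus strand, GRCm38.p2) had 95579, 130579 and 202113 reads in females, against 155238, 234709 and 71150 reads in males. The small-subunit rRNA gene mt-Rnr1 (ENSMUSG00000064337, MT 70 to 1024, plus strand), which lies just upstream and is separated from it only by the valine tRNA gene mt-Tv, had 14669, 20508 and 16068 reads in females, against 25117, 18493 and 2801 reads in males. On normalised library sizes male C was lowest for both, at 197 RPKM of mt-Rnr1, where the other 5 libraries lay between 706 and 1201, and at 3025 RPKM of mt-Rnr2, where they lay between 3375 and 6188.

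Per kilobase, mt-Rnr2 exceeded mt-Rnr1 in every library, but by factors that were far from constant. The ratio was 3.93, 3.84 and 7.59 in females, against 3.73, 7.66 and 15.3 in males. Libraries fell at about the same low ratio (female A, female B, male A), at about the same middle ratio (female C, male B) or, in male C, at the highest. The middle ratios went with high mt-Rnr2 and the highest ratio with low mt-Rnr1. Set against the complex III gene mt-Cytb, mt-Rnr2 per kilobase was 0.651, 0.676 and 1.53 in females, against 0.651, 1.51 and 0.629 in males. The same measure for mt-Rnr1 was 0.165, 0.176 and 0.202 in females, against 0.174, 0.197 and 0.0410 in males. Other features of the libraries moved with these values. The summed level of 8 immediate early genes, which are switched on quickly by activity or stress, was 326, 316 and 1083 CPM in females, against 139, 1028 and 657 CPM in males. The long noncoding RNA row Gm42418 held 0.416%, 0.711% and 1.66% of all counts in females, against 0.538%, 2.03% and 0.437% in males. Both were highest in female C and male B. The summed fibroblast markers were highest in male B and female C too, at 541, 431 and 582 CPM in females, against 494, 727 and 452 CPM in males. Of these markers the collagen genes Col1a1, Col1a2 and Col3a1 had most reads in male B and female C, whereas Dcn, Lum and Pdgfra did not. Col1a1 had 907, 732 and 2031 reads in females, against 895, 3600 and 735 in males. Dcn, the most counted of these markers, had 4856, 6913 and 6280 reads in females, against 6830, 5640 and 3970 in males. Among glial markers the myelin gene Mbp had 1789, 2172 and 4229 reads in females, against 1817, 5046 and 1965 in males, and the transcription factor gene Sox10 had 156, 178 and 339 reads in females, against 156, 397 and 98 in males. The sum of the glial markers did not follow these libraries, at 913, 731 and 777 CPM in females, against 787, 828 and 881 CPM in males. The part of any of these in the rRNA values was not tested.

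**Figure D2:**
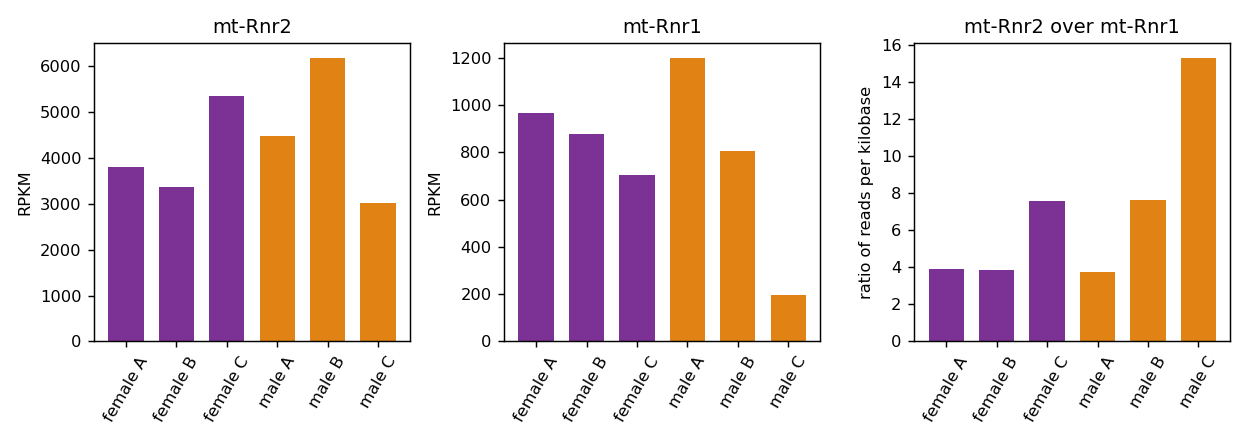
Bars give the level of mt-Rnr2 and of mt-Rnr1 in RPKM and, at the right, the ratio of their reads per kilobase, for the 3 female libraries (purple) and the 3 male libraries (orange). mt-Rnr2 is highest in male B and female C, mt-Rnr1 is lowest in male C, and the ratio runs between 3.73 in male A and 15.3 in male C.

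The protein genes ran between some of the most abundant RNAs of these cells and genes at or near 0 reads. Levels per kilobase were compared with RPKM on normalised library sizes, as mean ± SD over the 6 libraries. Complex III has a single mitochondrial subunit, cytochrome b, and its gene mt-Cytb (ENSMUSG00000064370, MT 14145 to 15288, plus strand) was the highest member at 5022 ± 1216 RPKM over the deposited gene lengths, rank 2 of all genes. That order depends on the length used: counted over the windows that no nuclear transcript shares, as set out below, mt-Co1 came to 5707 and mt-Nd4 to 1620 CPM per 1000 windows, against 5246 for mt-Cytb. Its reads numbered 106220, 139769 and 95376 in females, against 172545, 112216 and 81862 in males. Of complex I, the proton-pumping NADH dehydrogenase, mt-Nd1 (MT 2751 to 3707, plus strand) reached 4172 ± 1159 RPKM. In the same complex mt-Nd2 stood at 649.5 ± 209.9, mt-Nd4 at 590.3 ± 248, mt-Nd5 at 471 ± 155 and mt-Nd6, annotated on the minus strand, at 458 ± 180.3 RPKM. Of complex IV, cytochrome c oxidase, the catalytic subunit gene mt-Co1 (MT 5328 to 6872, plus strand) averaged 2700.4 ± 391 RPKM, with the smallest relative spread of the rRNA and protein genes, at a coefficient of variation of 14.5%. The rRNA genes lay among them, mt-Rnr2 at 4372 ± 1218 and mt-Rnr1 at 793 ± 337 RPKM.

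Most neighbours in the order by RPKM could not be separated. mt-Cytb was above mt-Rnr2 in 4 of 6 libraries, mt-Rnr2 above mt-Nd1 in 2 of 6 and mt-Nd1 above mt-Co1 in 5 of 6. mt-Co1 was above mt-Rnr1 in 6 of 6 libraries, by 1.94 ± 0.93 log2 units, and below that mt-Rnr1, mt-Nd2, mt-Nd4, mt-Nd5 and mt-Nd6 followed each other with an order kept in 4 or 5 of 6 libraries. The other 6 protein genes are not ranked, since they lie wholly in an interval with a nuclear copy, described below. Neighbours on the map could also differ: mt-Nd1 and mt-Nd2 are separated only by 3 tRNA genes, and mt-Nd1 had 5.27, 7.35 and 5.64 times the reads per kilobase of mt-Nd2 in females, against 7.05, 5.12 and 9.45 times in males. In contrast, mt-Cytb over mt-Nd1 stayed between 1.15 and 1.35 in the 3 female libraries and between 1.15 and 1.29 in the 3 male libraries, although these genes lie far apart. mt-Nd6 and mt-Nd5 lie on opposite strands and share their last bases on the map. No source used here gives the strand setting of the read counting. Reads in that overlap, or in any other row, therefore cannot be assigned to a strand, and strands named here are those of the annotation.

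**Figure D3:**
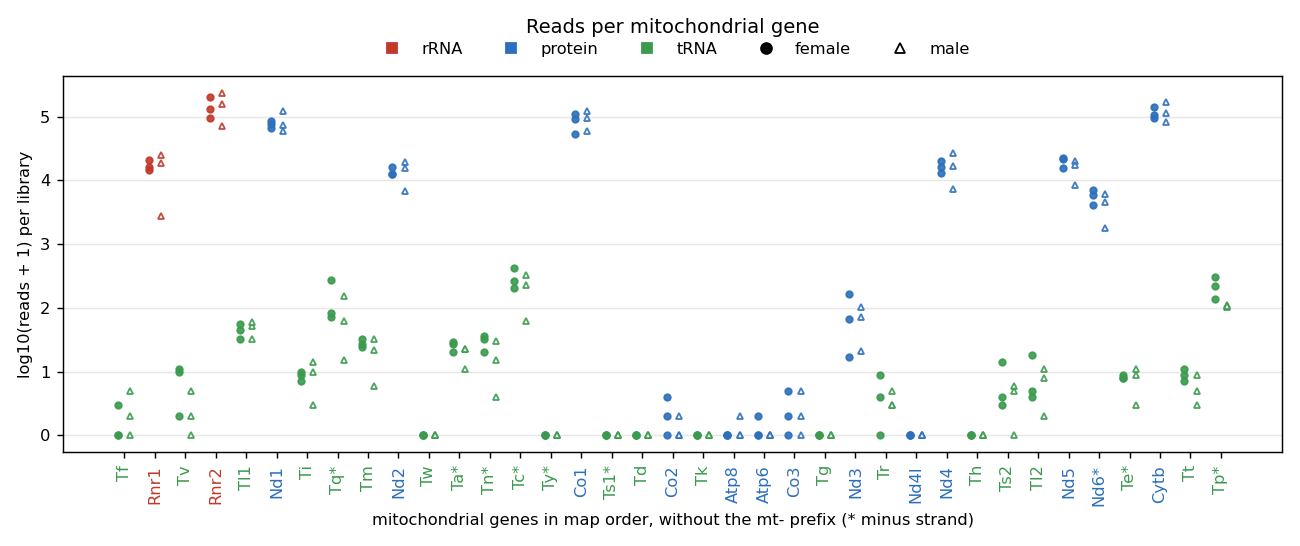
Each point is the read count of a mitochondrial gene in a library, as log10(reads + 1), with genes in map order, female libraries as filled circles and male libraries as open triangles. A run of 11 genes between mt-Co1 and mt-Nd4 lies at or near 0 except mt-Nd3 and mt-Tr, while mt-Rnr2, mt-Nd1, mt-Co1 and mt-Cytb lie near or above 1e+05 reads.

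Of the 13 protein genes, 5 had under 10 reads in every library: mt-Co2 and mt-Co3 of complex IV, mt-Atp6 and mt-Atp8 of ATP synthase and mt-Nd4l of complex I. mt-Co2 (ENSMUSG00000064354) had 3, 0 and 1 reads in females, against 1, 0 and 0 reads in males. mt-Co3 (ENSMUSG00000064358) had 1, 4 and 0 reads in females, against 1, 4 and 0 reads in males. mt-Atp6 had 1 read in female C, mt-Atp8 had 1 read in male C, and mt-Nd4l had none in any library. mt-Nd3, another complex I gene, had 16, 66 and 164 reads in females, against 104, 70 and 20 reads in males, or 9.39 ± 6.36 RPKM. Most of these letters also occur in the nuclear genome, so the counts are given as reads and are not read as levels of the RNAs.

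A block on chromosome 1, at 24611535 to 24616197 on the minus strand (GRCm38.p2), holds 7 annotated genes that match mitochondrial genes nearly letter for letter. Over the aligned bases, the copies of mt-Co2 (Gm28661, 681 bases), mt-Atp6 (Gm10925, 678 bases), mt-Co3 (Gm28437, 783 bases), mt-Nd4l (Gm10222, 294 bases) and the 5' part of mt-Nd4 (Gm28439, 876 bases) had no mismatch. Gm29216 matched bases 1063 to 1545 of mt-Co1 with 1 mismatch, and Gm28438 matched 345 bases of mt-Nd3 with 1 mismatch. By the outer ends of these alignments the block corresponds to MT 6390 to 11042, which is 4653 bases. The 11 members lying wholly in that interval, 6 protein and 5 tRNA genes, had between 0 and 164 reads per library. The 2 members partly in it, mt-Co1 and mt-Nd4, had between 7223 and 122370 reads, and the 5 protein genes outside it between 1781 and 172545. The 7 nuclear rows had few reads as well, between 0 and 20 per library, so few reads were counted at the copy either. No source used here gives how reads that match several places were handled, and its part in these low counts was not tested.

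The sequences of the copied genes show how little there is to tell them apart. All are from GENCODE M21 transcripts on GRCm38 and run 5' to 3'. The mt-Nd3 gene (MT 9459 to 9806, plus strand) and its copy Gm28438 (chromosome 1, 24612775 to 24613119, minus strand) differ by T3C, counted from the first base of mt-Nd3. Their first 150 bases (MT 9459 to 9608 and chromosome 1, 24612970 to 24613119) are shown with that position in capitals.
mt-Nd3: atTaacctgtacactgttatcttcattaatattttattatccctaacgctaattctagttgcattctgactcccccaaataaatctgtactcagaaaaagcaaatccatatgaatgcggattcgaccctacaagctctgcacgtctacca
Gm28438: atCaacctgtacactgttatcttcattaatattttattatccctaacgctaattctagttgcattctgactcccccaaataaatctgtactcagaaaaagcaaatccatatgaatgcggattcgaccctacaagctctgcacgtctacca
The mt-Nd4l gene (MT 9877 to 10173, plus strand) and its copy Gm10222 (chromosome 1, 24612407 to 24612700, minus strand) are shown because no library had a read for either. They do not differ over the copy's annotated length, and capitals mark the last 3 bases, which lie beyond that annotation.
mt-Nd4l: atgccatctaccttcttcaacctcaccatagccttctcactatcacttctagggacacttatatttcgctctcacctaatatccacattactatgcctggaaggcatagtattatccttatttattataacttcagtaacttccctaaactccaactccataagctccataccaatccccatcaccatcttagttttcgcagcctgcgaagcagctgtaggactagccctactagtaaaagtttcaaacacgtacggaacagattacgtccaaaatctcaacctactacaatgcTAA
Gm10222: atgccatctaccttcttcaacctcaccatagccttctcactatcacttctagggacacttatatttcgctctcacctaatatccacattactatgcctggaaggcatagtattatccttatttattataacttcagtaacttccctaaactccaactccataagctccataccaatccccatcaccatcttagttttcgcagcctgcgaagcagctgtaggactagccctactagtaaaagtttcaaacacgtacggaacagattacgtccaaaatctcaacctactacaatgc
The start of mt-Co1 (MT 5328 to 5477, plus strand) is shown beside a copy with more differences, Gm13340 (chromosome 2, 22589498 to 22589647, minus strand), for contrast. This copy matches mt-Co1 over its full length of 1545 bases with 37 mismatches, and capitals mark C54A, A60G and G87A, counted from the first base of mt-Co1.
mt-Co1: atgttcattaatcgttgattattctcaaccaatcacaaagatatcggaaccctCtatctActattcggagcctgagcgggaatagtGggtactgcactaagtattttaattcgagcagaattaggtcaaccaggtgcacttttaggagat
Gm13340: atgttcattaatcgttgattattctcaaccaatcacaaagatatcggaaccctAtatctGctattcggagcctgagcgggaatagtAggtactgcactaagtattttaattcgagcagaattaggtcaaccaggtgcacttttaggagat
Unlike the block on chromosome 1, Gm13340 had a moderate number of reads, 48, 122 and 71 in females, against 90, 93 and 53 in males. mt-Co1 itself had 53076 to 109374 reads in female libraries and 58819 to 122370 in male libraries.

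The copies were measured over all members by sliding a window of 50 bases along each gene and asking whether its letters occur in any annotated transcript off the mitochondrial genome. All windows of mt-Co2, and 99.9%, 99.5%, 98.8% and 98.0% of those of mt-Co3, mt-Atp6, mt-Nd4l and mt-Nd3, were found elsewhere. The share was 62.2% for mt-Nd4, 51.1% for mt-Co1, 8.19% for mt-Nd2, 7.61% for mt-Nd5, 1.04% for mt-Rnr2 and 0% for mt-Rnr1, mt-Nd1, mt-Nd6 and mt-Cytb. mt-Atp8 also had 0%, since no annotated transcript covers its place in the block, which lies between the copies of mt-Co2 and mt-Atp6. If only the windows not found elsewhere are taken as the countable length, mt-Co1 took the highest place, at the 5707 CPM per 1000 windows given above, and mt-Cytb the next. On the same scale mt-Nd4, at 1620, lay above mt-Rnr1 at 836 and mt-Nd2 at 743. This correction was chosen after the levels were seen, and an exact match of 50 bases is only a stand-in for the unknown read length.

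**Figure D4:**
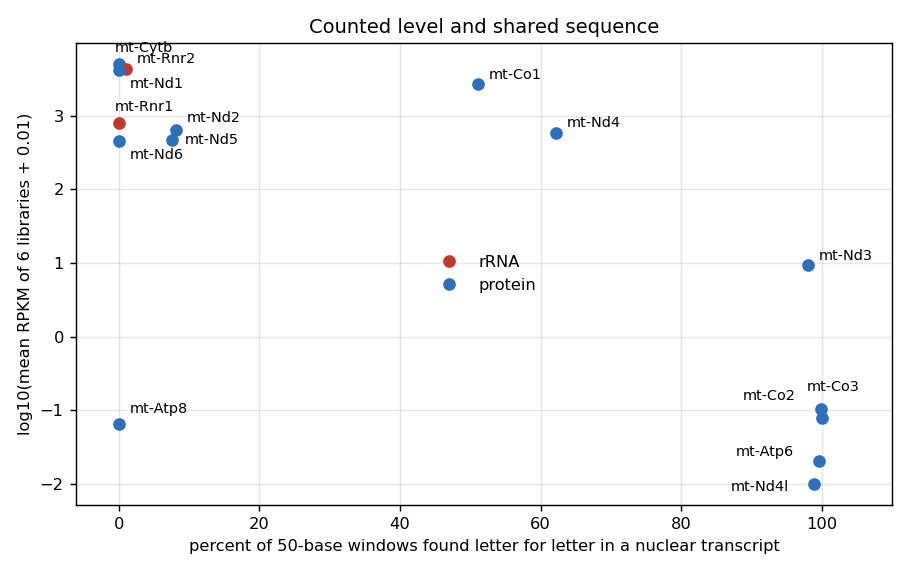
Each point is an rRNA or protein gene, with the percent of its 50-base windows found letter for letter in a nuclear transcript on the horizontal axis and log10(mean RPKM of 6 libraries + 0.01) on the vertical axis. The 5 genes at 98.0% or more lie at 9.39 RPKM or lower, mt-Co1 and mt-Nd4 stand high at 51.1% and 62.2%, and mt-Atp8 is low at 0%.

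Transfer RNAs were nearly absent. The 22 genes together had 544, 989 and 957 reads in females, against 641, 670 and 253 reads in males. That was 0.132%, 0.181% and 0.185% of mitochondrial counts in females, against 0.0995%, 0.109% and 0.0847% in males. Every female share was above every male share, which was 1 of several shares examined and was not tested. For comparison, 3.17% of all single genes tested for sex lay that way in CPM. Counts per gene cannot separate finished tRNAs from precursors or from neighbouring RNAs. Only 5 tRNA genes reached 10 reads in every library, and 9 stayed under 10 reads in every library, 7 of them with no read at all. Of those 7, mt-Ts1, mt-Td, mt-Tk and mt-Tg lie in the interval copied on chromosome 1, whereas mt-Tw and mt-Ty, at either end of the tRNA cluster before mt-Co1, and mt-Th, just after mt-Nd4, lie outside it.

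Minus-strand tRNA genes held most of the tRNA reads. The 8 minus-strand genes had 460, 875 and 822 reads in females, against 551, 533 and 197 reads in males, while the 14 plus-strand genes had 84, 114 and 135 reads in females, against 90, 137 and 56 reads in males. The 3 highest tRNAs, all on the minus strand, held between 76.1% and 81.6% of tRNA reads in female libraries and between 71.9% and 76.8% in male libraries. They were mt-Tc, the cysteine tRNA gene, at 176 ± 69.8 RPKM, mt-Tp, the proline tRNA gene, at 116 ± 44.5 RPKM, and mt-Tq, the glutamine tRNA gene, at 69.1 ± 51.6 RPKM (SD, n = 6). No tRNA gene shared a window of 50 bases with an annotated nuclear transcript, not even those in the interval copied on chromosome 1. This search therefore cannot show whether a tRNA gene also occurs in the nuclear genome. The gene sequences of these 3 are given 5' to 3' with the anticodon in capitals.
mt-Tc: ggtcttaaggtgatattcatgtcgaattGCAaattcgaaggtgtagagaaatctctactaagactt
mt-Tp: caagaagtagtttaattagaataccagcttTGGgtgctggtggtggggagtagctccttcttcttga
mt-Tq: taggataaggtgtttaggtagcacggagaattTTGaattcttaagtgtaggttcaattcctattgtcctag
mt-Tc (MT 5192 to 5257) had 204, 424 and 262 reads in females, against 328, 226 and 62 reads in males. mt-Tp (MT 15356 to 15422), which borders the noncoding control region, had 138, 301 and 221 reads in females, against 102, 108 and 106 reads in males. mt-Tq (MT 3772 to 3842) varied most of these, with 72, 82 and 272 reads in females, against 62, 153 and 14 reads in males. Next came the plus-strand genes mt-Tl1, a leucine tRNA gene beside mt-Rnr2, at 29.0 ± 3.08 RPKM and mt-Tm, the methionine tRNA gene before mt-Nd2, at 16.02 ± 7.94 RPKM. mt-Tl1 was the steadiest of the 5, with 24.6 to 29.4 RPKM in female libraries and 28.7 to 33.4 RPKM in male libraries. The alanine and asparagine tRNA genes mt-Ta and mt-Tn, neighbours of mt-Tc on the minus strand, averaged 14.6 ± 2.80 and 14.3 ± 7.06 RPKM.

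The only contrast in the design was sex, and no mitochondrial gene passed the test for it. In edgeR's quasi-likelihood test with Benjamini-Hochberg adjustment at 0.05, 5 of 15026 genes tested were called (0.0333%), 0.00666% higher in females and 0.0266% higher in males, and 0 of the 17 mitochondrial genes that passed the filter on low counts. DESeq2 and limma-voom also called 0 of the 17. In edgeR 1 of the 17 had an unadjusted p below 0.05, against 1.1% of all genes tested. The other 20 members were too low to be tested. The median log2 fold change, female over male, was 0.23 over the 17 genes and -0.005 over all genes tested, with 12 of the 17 higher in females. This leaning rested on male C: without it the median was -0.10. Every female library was above every male library for 2 of the 17 genes, mt-Tp and mt-Ta, against 3.17% of all genes tested, and 0 of the 17 lay the other way round, against 2.53%.

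The member of smallest p was mt-Tp, with 10.1 ± 1.94 CPM in females and 5.43 ± 1.47 CPM in males (SD, n = 3 each). Its log2 fold change was 0.90, standard error 0.28 (edgeR, unadjusted p = 0.00848, adjusted p = 0.9997), and it did not pass the adjusted threshold. mt-Tq was at 0.91 on that log2 scale (standard error 0.62) and mt-Tn at 0.87 (0.56). The large RNAs were closer to even: the log2 fold change was -0.20 (standard error 0.17) for mt-Co1, -0.18 (0.26) for mt-Nd1, -0.14 (0.24) for mt-Cytb and -0.13 (0.26) for mt-Rnr2. Among the other protein genes, mt-Nd5 had 0.42 (0.26), mt-Nd6 0.52 (0.33), mt-Nd3 0.23 (0.62), mt-Nd2 0.06 (0.29) and mt-Nd4 0.05 (0.37). mt-Nd5 and mt-Nd6 kept a positive sign when any library was left out. For mt-Rnr1 the log2 fold change was 0.21 (standard error 0.48), which was -0.24 without male C. The remaining tRNA genes tested were mt-Tc at 0.52 (0.39), mt-Tm at 0.58 (0.53), mt-Ta at 0.39 (0.39) and mt-Tl1 at -0.20 (0.30). With standard errors of this size the data set no close limit on a sex difference of the low members.

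**Figure D5:**
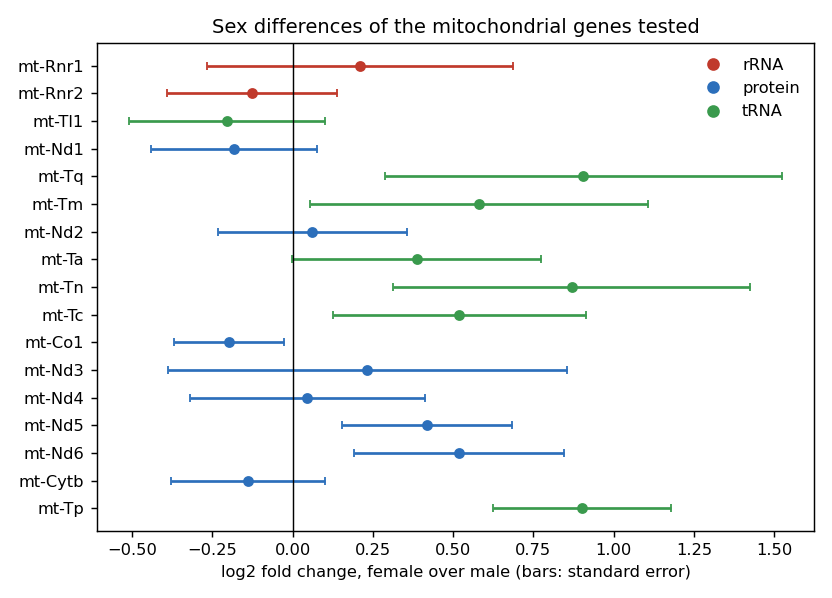
Points give the log2 fold change, female over male, of the 17 mitochondrial genes tested, in map order, and bars its standard error. Values run between -0.20 for mt-Tl1 and 0.91 for mt-Tq, and the tRNA genes have wider bars than mt-Co1, mt-Cytb and mt-Nd1.

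Several members varied more between libraries of the same sex than most genes with a mean of 100 CPM or more. The biological coefficient of variation, the relative spread left after counting error, had a median of 0.175 over 2093 genes with a mean of 100 CPM or more. It was 0.405 for mt-Rnr1, higher than in 99.6% of those genes, 0.318 for mt-Nd4, 0.288 for mt-Nd6 and 0.262 for mt-Nd2. For mt-Cytb it was 0.218, for mt-Nd1 0.234, for mt-Rnr2 0.237 and for mt-Nd5 0.239. The mt-Rnr1 value goes with the low level in male C: 924, 839 and 674 CPM in females, against 1147, 771 and 188 CPM in males. mt-Co1, at 0.166, was the only one of the 9 mitochondrial genes at that level to lie under the median. In reads per kilobase, mt-Cytb over mt-Nd6 was 8.09, 8.84 and 10.6 in females, against 13.03, 11.1 and 20.9 in males. The sexes did not overlap in this ratio, with a narrow gap between female C and male B, and it was 1 of 9 ratios examined and was not tested. mt-Nd6 itself had an edgeR adjusted p of 0.9997 for sex.

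The nuclear genes that make, process and translate these RNAs, or build the same complexes, also showed no sex difference past the test. In the 6 lists below, edgeR, DESeq2 and limma-voom each called 0 genes, and edgeR gave 0 an unadjusted p below 0.05. Over all genes tested, edgeR called 0.0333% and gave 1.1% an unadjusted p below 0.05. Counts of 0 in lists this short are therefore near the background and say little about these genes in particular. Of 20 genes for transcription of the mitochondrial genome and upkeep of its DNA, 20 were tested and 0 called, with a median log2 fold change of -0.05. The highest were Mterf2, a member of the termination factor family, at 20.5 ± 4.30 RPKM and the elongation factor gene Tefm at 16.8 ± 3.95 RPKM (SD, n = 6). Of 36 RNA processing and decay genes tested 0 were called, with a median of -0.03, led by Rexo2, which encodes an oligoribonuclease, at 169 ± 14.9 RPKM and by Hsd17b10, a subunit of the tRNA-cutting enzyme RNase P, at 79.8 ± 8.49 RPKM. Of 30 translation factors and tRNA synthetases tested 0 were called, with a median of -0.04, led by the leucyl-tRNA synthetase gene Lars2 at 449.7 ± 54.2 RPKM and by Kars, the lysyl-tRNA synthetase gene, at 116 ± 17.2 RPKM. Among 24 nuclear subunits of the respiratory complexes and cytochrome c, 0 were called and the median was -0.05. Their highest members, Cox4i1 of complex IV at 347 ± 29.5 RPKM and Atp5a1 of ATP synthase at 334 ± 22.8 RPKM, were steadier between libraries than mt-Co1 or mt-Cytb in RPKM. This did not hold for all 24. Relative to their means, Uqcrfs1 at 66.6 ± 48.1 RPKM and Cox5a at 135 ± 59.4 RPKM varied more than mt-Co1 or mt-Cytb. The 14 genes used as a measure of mitochondrial mass, led by the ADP/ATP carrier gene Slc25a4 at 827 ± 41.04 RPKM and the channel gene Vdac1 at 274 ± 22.5 RPKM, had 0 calls and a median of -0.05. Of the biogenesis regulators 14 were tested and 0 called, with a median of 0.06. Their highest members were Sirt3, a mitochondrial deacetylase gene, at 25.5 ± 5.70 RPKM and Nfe2l2 at 6.98 ± 0.584 RPKM. The members of smallest p in these 6 lists were Mterf1b, Fastk, Wars2, Uqcrc1, Slc25a5 and Esrrg, whose log2 fold changes were -0.62, -0.36, 0.32, -0.28, -0.24 and 1.41 in that order, each with an edgeR adjusted p of 0.9997.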

How the data were processed

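Counts, CPM and RPKM per gene were deposited by the authors for each of 6 libraries. The read counter was featureCounts 1.4.5 (Subread) with GRCm38.p2, per the submitters' processing notes. Per the labels' protocols, a SMARTer kit for very small RNA inputs and 12 PCR cycles were applied to 10 ng of RNA. Not given in the sources used here: read length, strand setting, annotation release, treatment of reads matching several places. The deposited CPM and RPKM equal the counts divided by the library total and by the deposited gene length, and were used for that check alone. The deposited counts are whole numbers, summing to between 15.69 and 24.03 in units of 1e+06 reads.

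Symbols came from GENCODE M21 by Ensembl identifier (40254 of 41388). Its transcripts gave the sequences, the shared windows and the pairwise alignments (Biopython 1.88, pandas 2.3.3). All 37 mitochondrial rows equal its positions. CPM and RPKM were recomputed with TMM library sizes (edgeR 4.0.16, R 4.3.3). Sexes were compared with edgeR's quasi-likelihood test after filterByExpr, over all genes, two-sided. A standard error is the absolute log2 fold change over the square root of F. The fits were checked on simulated counts in which 200 genes changed. Biological coefficients of variation came from edgeR. Intervals and the limit of a count of 0 (3 reads, 95% level) cover counting error only, since PCR reads are not independent molecules. No 2 libraries of a sex agreed within sampling noise (smallest chi-square per degree of freedom 18.8).

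The members and gene lists were chosen with earlier results of these data known. Every rRNA and protein gene, every member with a mean of 1 CPM or more, the 5 highest tRNA genes, the neighbours of protein genes, and of each nuclear list the 2 highest and the member of smallest p were to be named, with the 10 nuclear genes most like the mitochondrial protein-gene sum. Of 38 RNA processing genes and 31 translation genes listed, 2 and 1 were not matched. Alternatives tried were RLE, upper-quartile and nuclear-only scaling, no filter, 1 CPM in 3 libraries, DESeq2 1.42.0, limma-voom (limma 3.58.1), robust dispersions, letters as a block, embryos pooled as a covariate, a threshold of 0.10 and each library left out. No library or count column was left out of the main results. The shared windows and the comparison without male C were chosen after the data were seen.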

Additional observations from a re-analysis of the deposited data

Results flagged for a closer look

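Of 42 mitochondrial quantities examined over the 6 libraries, 3 had a library far from the others, measured as its gap to the nearest library over the whole range, with a limit of 0.625 for 6 values. Chance gives such a gap in about 1 in 20 quantities, and these 3 share the reads of mt-Rnr1. All concern male C, the single-embryo library. The mt-Rnr1 percent of mitochondrial counts was 0.937% there (gap 0.698), against 3.00% to 3.90% in the other libraries. The ratio of mt-Rnr2 to mt-Rnr1 per kilobase was 15.3 (gap 0.661). On the log2 scale this ratio was 1.98, 1.94 and 2.92 in females, against 1.90, 2.94 and 3.94 in males. There male C was still highest, but its gap was not past the limit. The ratio of mt-Rnr1 to mt-Cytb per kilobase was 0.0410 (gap 0.774). Male C also had the fewest total counts and the fewest genes with a read, 19526, and the part of this in the values was not tested. Its sample record is numbered apart from those of the other libraries. A separate handling, if there was one, cannot be told apart from the single embryo.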

How the results depend on the processing

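No mitochondrial gene was called for sex under any of 16 alternatives, and the lowest adjusted p of a member was 0.782. Of 272 fold changes of the 17 members under these alternatives, 259 kept their sign; 10 members kept it throughout. The 13 that turned all came from leaving a library out. Their log2 fold changes ranged between -0.24 (without male C) and 0.76 for mt-Rnr1, -0.35 and 0.16 for mt-Rnr2, -0.42 and 0.083 for mt-Nd1, -0.32 and 0.32 for mt-Nd2, -0.68 and 0.72 for mt-Nd3, -0.40 and 0.48 for mt-Nd4 and -0.31 and 0.10 for mt-Cytb; the cause was not tested. Male C turned 4 of them. The median over members ranged between -0.10 and 0.56 when each library was left out. Calls over all genes stayed at 5 in each leave-one-out fit, and were 12 with no filter, 7 with DESeq2 and 6 with limma-voom. With rRNA rows left out, protein genes held 99.8% and tRNA genes 0.197% of mitochondrial counts by construction. The mitochondrial share stayed between 2.33% and 2.53%, and the log2 ratio of mt-Rnr2 to mt-Rnr1 between 2.34 and 2.74, when a library was left out. Nothing in the labels says that the letters pair the libraries. Same-letter correlations of deviations from the sex mean were 0.28, -0.29 and -0.08. With so few libraries of each sex, these cannot decide whether a pairing exists. With the letter as a replicate block 5 genes and 0 mitochondrial genes were called, and not every library correlated best with its own letter. The 14 members under 10 reads in every library are too low for a level to be read from them. The part of depth in their low counts was not tested.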

Other observations

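Of the 12 nuclear genes listed as pseudogenes of mitochondrial genes, 9 shared at least 1 window of 50 bases with a member, and 15 nuclear genes did so in all. Gm15564, the most counted of the list at 740 ± 120.3 RPKM (SD, n = 6), shared none, and neither did Gm11808 or Gm12715. Gm15564 held between 0.0550% and 0.0710% of all counts in female libraries and between 0.0469% and 0.0695% in male libraries, and it did not follow mt-Rnr2.

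The protein-coding nuclear genes whose log2 CPM lay closest to the log2 sum of mitochondrial protein genes over the 6 libraries, out of 8616 with a mean of 10 CPM or more, were Kif2a (Pearson r = 0.994), Fyb2 (0.989), Siah1a (0.984), Mrpl47 (0.982), Fam8a1 (0.981), Tsga10 (0.975), Ints6 (0.975), Tyw5 (0.975), Map3k7 (0.975) and Dynlt3 (0.973). These are descriptions over 6 libraries that share depth and composition, the best of many genes, and carry no test.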
